A study of Mus musculus with 4 samples.

Results

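The molecules described here are T-cell receptor beta (TRB) contigs without a V segment, that is, assembled transcript sequences of single thymocytes that were assigned to the TRB chain and in which no V segment was called. They were taken from the V(D)J tables of 2 conditions as every contig with chain TRB and an empty V call, which gave 3714 of 23855 contigs in all, 2257 of 12034 in turnover and 1457 of 11821 in autonomy. The samples were mouse thymocytes sorted as DN3-DN4, ISP (immature single positive) and DP (double positive) cells from wild-type thymi 28 days after transplantation, under a condition named turnover and a condition named autonomy. As these names are used in the field, progenitors from the host's bone marrow replace the thymocytes in turnover, while in autonomy thymocytes resident in the graft sustain T-cell development without that supply. The host strains, ages and numbers of animals are not given in the sources used here. For each condition 1 library of gene expression and another of V(D)J transcripts came from the same cells, made with the 10x 5′ chemistry, so no difference between conditions has a replicate check and no test was made. Intervals given below are exact 95% binomial intervals unless named otherwise and cover counting error only, because cells of 1 library are not replicates.

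The mouse TRB locus on chromosome 6 is built for joining in 2 steps. A D segment is first joined to a J segment in early DN thymocytes, and a V segment is then joined to that DJ unit. Downstream of most V segments lie Trbd1, the Trbj1 cluster and Trbc1, followed by Trbd2, the Trbj2 cluster and Trbc2; a join that uses Trbj1 therefore leaves the Trbd2-Trbj2 unit on that chromosome, while a join of Trbj2 to Trbd1 or to an upstream V segment removes the Trbj1 cluster. Trbv31 lies downstream of Trbc2 and joins by inversion. Partial DJ joins and unrearranged J clusters are transcribed from promoters next to the D segments, which is a known source of TRB RNA without a V segment. In the RefSeq annotation of GRCm38.p6 the first cluster runs from Trbd1 (41533201 to 41533212) to Trbj1-7 (41535642 to 41535687), and the second from Trbd2 (41542163 to 41542176) to Trbj2-7 (41543810 to 41543856). Trbj2-6 (41543598 to 41543645) is annotated as a J segment pseudogene.

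The tables give no sequence for contigs without a V segment. The sequences that carry a finding are the CDR3s called productive, the junctions of V, D and J, of the 6 autonomy clones that held the most of these contigs. Cells that share such a junction descend from 1 rearranged precursor and can be followed as a family. Productive is the deposited call. The TRBV13-2 TRBJ2-7 sequence has bases ahead of the start that the other printed sequences share. Read in triplets from that start it meets a stop codon, so it is productive by the deposited call only. The 6 CDR3s are printed 5′ to 3′ from the deposited table, in capitals where the 3′ end is the same as the most frequent base at each position among the distinct productive CDR3s of that J segment in both libraries, so that the lower-case part holds the V end and the clone's own junction.
TRBV3 TRBJ2-2: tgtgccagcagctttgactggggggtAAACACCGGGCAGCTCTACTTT
TRBV3 TRBJ2-5: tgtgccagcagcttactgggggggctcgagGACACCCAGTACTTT
TRBV13-2 TRBJ2-7: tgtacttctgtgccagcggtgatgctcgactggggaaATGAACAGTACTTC
TRBV13-1 TRBJ1-1: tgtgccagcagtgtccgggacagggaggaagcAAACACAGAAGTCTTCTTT
TRBV19 TRBJ2-4: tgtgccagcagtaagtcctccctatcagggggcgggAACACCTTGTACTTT
TRBV5 TRBJ1-1: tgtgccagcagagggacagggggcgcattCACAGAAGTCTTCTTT

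The gene expression tables held 20163286 UMIs (unique molecular identifiers, counted molecules) in 4374 barcodes in turnover and 16388810 in 4587 barcodes in autonomy. Kept were cells that reached 500 genes and 1000 UMIs and stayed within 10% mitochondrial UMIs, 4194 in turnover with a median of 2117 UMIs and 4397 in autonomy with a median of 2433. Contigs summed to 177475 UMIs in turnover and 105865 in autonomy. The labelled identity was checked with defining genes: Cd3e, a CD3 subunit, had a UMI in 98.3% of kept cells in each library, Cd8a in 93.7% and 96.4%, Cd4 in 71.8% and 80.1%, and Rag1, which cuts DNA for V(D)J joining, in 76.8% and 80.5%. The V(D)J tables shared 27 barcodes, and without them the shares of contigs and of cells with a contig without a V segment differed by less than their intervals in each library.

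Contigs without a V segment made up 32.5% of TRB contigs in turnover (31.4 to 33.6; 2257 of 6955) and 21.7% in autonomy (20.7 to 22.7; 1457 of 6711). Counted as UMIs the shares were lower, 24.2% and 15.4%. Every one was a high-confidence contig in a barcode called a cell, no barcode held more than 1, and all but 4 carried a J segment. A D segment was called in 0 of 2257 and 0 of 1453 contigs with a J segment, which allows a share of up to 0.133% and 0.206%, against 80.5% and 80.1% of TRB contigs with a V and a J segment. None of them had a CDR3 call or was called full length. The constant region call was TRBC2 in all 3714, but it separates nothing here, because TRBC2 was also called in 1788 of 1789 turnover contigs that join a V segment to TRBJ1 and TRBC1 was called in no contig of either table.

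They were shorter and held fewer UMIs than contigs with a V segment. The median length was 463 bases in each library, against 689 in turnover and 678 in autonomy with a V segment. The middle 50% ran from 421 to 523 bases in turnover and from 380 to 523 in autonomy. Median UMIs per contig were 11 against 17 in turnover and 6 against 10 in autonomy. Few rested on a single molecule: 1 of 2257 in turnover and 13 of 1457 in autonomy rested on 1 UMI. Unproductive or unresolved contigs with a V segment held still fewer, with medians of 6 and 4 UMIs.

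Within a cell the median balance of the 2 contigs differed with the state of the V-containing one. Among cells with 1 V-containing TRB contig, the UMIs of the contig without a V segment were a median 0.5 times those of the V-containing contig in turnover (1707 cells) and 0.444 times in autonomy (814 cells) where that contig was productive. Where it was not productive the median ratio was 1.6 (65 cells) and 1.93 (228 cells). So by the median the contig without a V segment was the less abundant one beside a productive chain and the more abundant one beside an unproductive chain, in each library. Single cells varied widely. Beside a productive chain the lower and upper quartiles of the ratio were 0.308 and 1.25 in turnover and 0.286 and 1.2 in autonomy. Beside an unproductive chain they were 0.429 and 4 in turnover and 1 and 3.425 in autonomy. In turnover, cells thus lay on both sides of 1 in each state.

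The J segments they carried differed from those of V-containing contigs, most of all in the pseudogene segment. TRBJ2-6 was carried by 226 contigs without a V segment in turnover (10.0%, 8.81 to 11.3) and 345 in autonomy (23.7%, 21.6 to 26.0). Among V-containing contigs it was carried by 23 (0.491%) and 24 (0.460%), none of them productive. Of all TRB contigs with TRBJ2-6, 90.8% and 93.5% had no V segment. TRBJ1-7 was seen in 5 and 2 contigs without a V segment and in 0 with one.

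TRBJ2-1, the first segment of its cluster, led in turnover with 623 contigs (27.6%, 25.8 to 29.5) against 10.3% of V-containing contigs. Over all its contigs autonomy showed no such excess, with 8.60% against 8.19%. The share differed by cell, however. In cells with 1 V-containing contig, on TRBJ1, TRBJ2-1 made up 28.4% (57 of 201) in autonomy and 34.8% (310 of 890) in turnover. With that contig on TRBJ2 it was 4.11% and 16.7%. Over all autonomy contigs without a V segment the leading segments were TRBJ2-7 (23.8%) and TRBJ2-6, followed by TRBJ2-5 (13.8%). TRBJ2-5 and TRBJ2-4 were less frequent than among V-containing contigs in both libraries, at 6.56% against 12.9% and 6.60% against 8.81% in turnover and at 13.8% against 21.1% and 4.06% against 18.2% in autonomy.

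The Trbj1 cluster was used by 22.4% (20.7 to 24.2) of turnover contigs without a V segment and by 38.2% with one. In autonomy it was used by 12.2% (10.5 to 14.0) and 9.94%, but this share rests on a few clones: counted once per clone and J segment it was 7.20% (5.63 to 9.03). Most of the shift lay in TRBJ1-2, which held 7.85% of autonomy contigs without a V segment and 2.43% when counted once per clone. TRBJ1-1, the segment nearest Trbd1, was rare without a V segment, at 2.75% against 10.3% in turnover and 0.275% against 1.97% in autonomy.

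**Figure D1:**
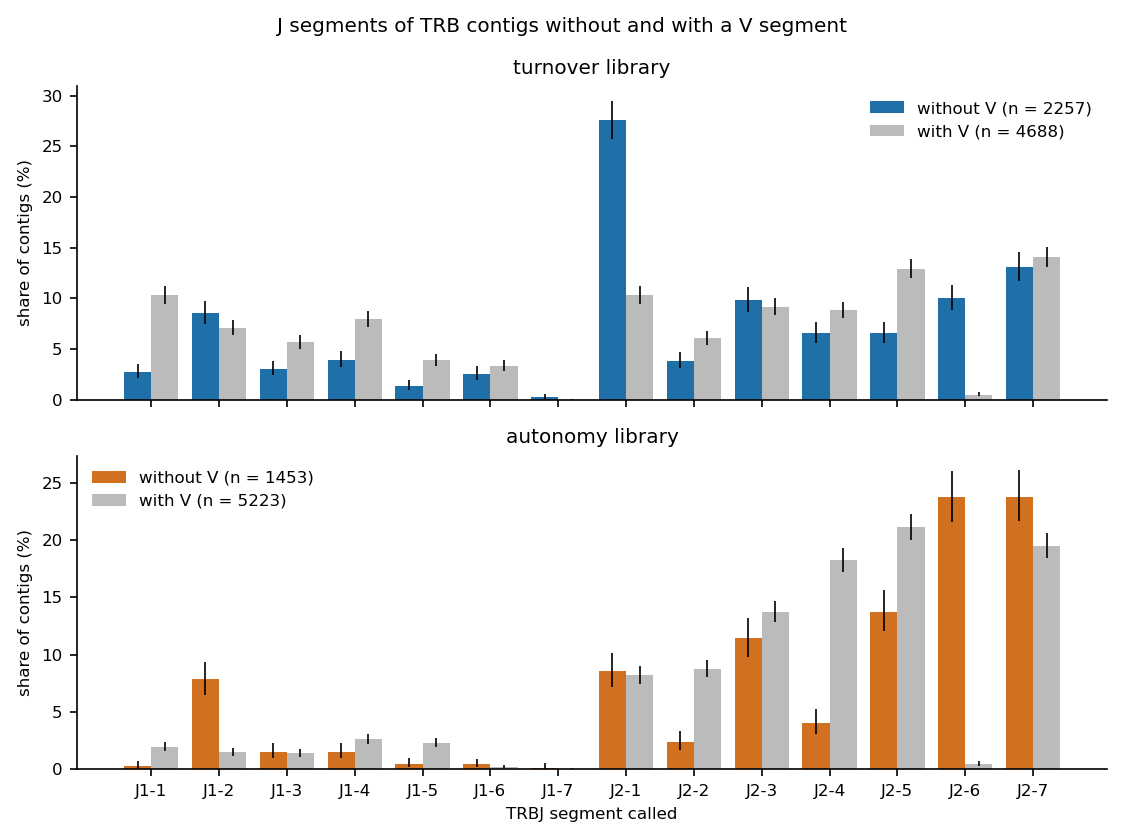
Share of TRB contigs (%) that carry each TRBJ segment, for contigs without a V segment (coloured) and with one (grey), turnover above and autonomy below; bars carry exact 95% binomial intervals. TRBJ2-6 stands at 10.0% and 23.7% without a V segment and under 0.5% with one, and TRBJ2-1 leads in turnover at 27.6%.

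The length outside the J segment fell into narrow classes, several of which occurred in both libraries. For the 6 functional TRBJ2 segments in turnover the classes lay at 304 to 327, 384 to 407 and 456 to 479 bases, and these 3 windows, set on turnover, held 59.7% of its 1525 contigs. They held 50.9% (47.6 to 54.2) of the 931 autonomy contigs, which did not set them. The fullest bin of 8 bases was the same for TRBJ2-3 in both libraries (464 to 471 bases) and for TRBJ2-4 (312 to 319 bases). For the other 4 it differed: it began at 392 bases in turnover and 464 in autonomy for TRBJ2-1, at 208 and 312 for TRBJ2-2, at 304 and 232 for TRBJ2-5, and at 464 and 392 for TRBJ2-7.

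TRBJ2-6 and TRBJ1 contigs followed other classes. The same windows held 15.04% (10.6 to 20.4) of TRBJ2-6 contigs in turnover and 19.7% (15.6 to 24.3) in autonomy, with the fullest bin at 408 to 415 bases in both. They held 16.2% and 24.9% of TRBJ1 contigs. TRBJ1-2 had its fullest bin at 328 to 335 bases in both libraries and TRBJ1-3 at 408 to 415 bases in both. Autonomy TRBJ2-5 stood apart with 9% in the windows, against 40.5% in turnover, and a fullest bin at 232 to 239 bases that held 53 of 200 contigs.

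**Figure D2:**
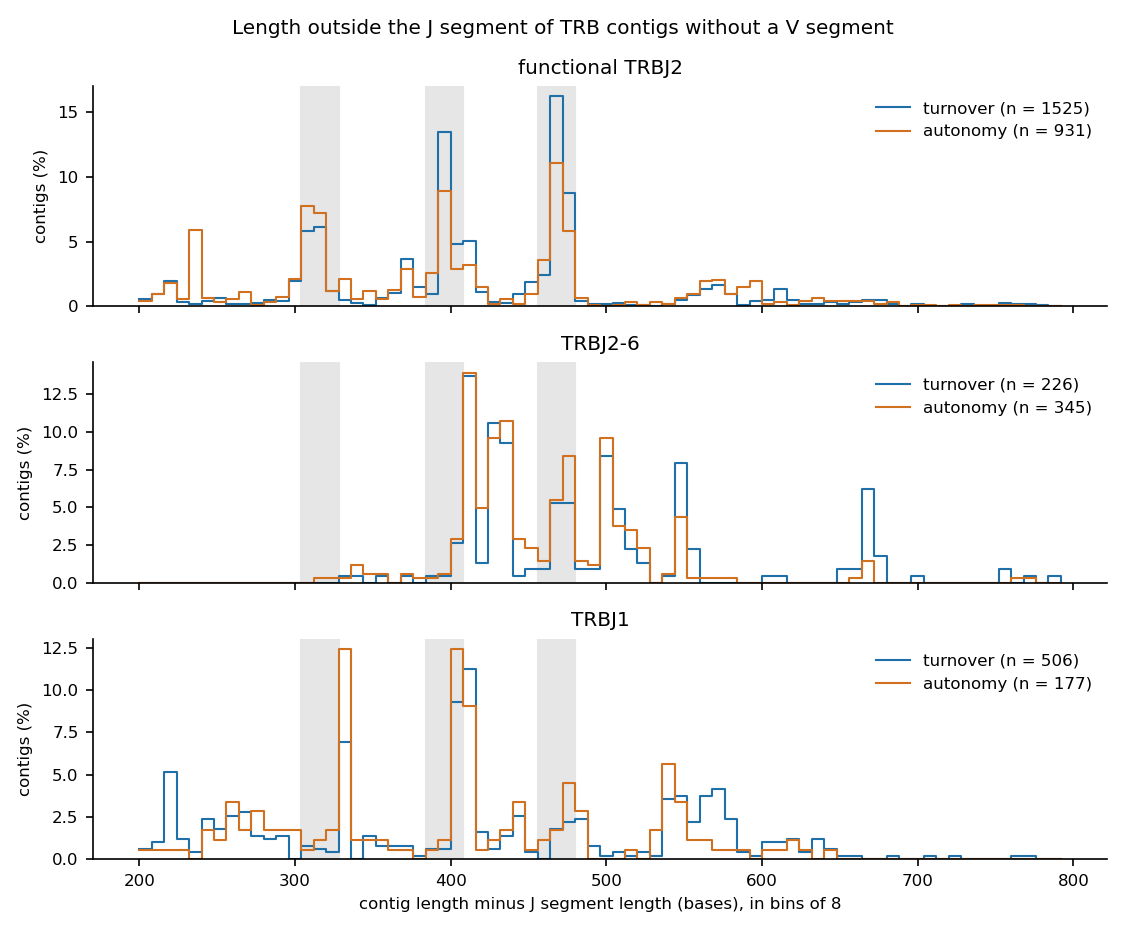
Percent of TRB contigs without a V segment (vertical) by contig length minus J segment length in bases (horizontal, bins of 8), for functional TRBJ2, TRBJ2-6 and TRBJ1, in turnover and autonomy; grey bands are the 3 windows set on turnover. Most high peaks occur in both libraries, apart from the autonomy peak at 232 to 239 bases, and TRBJ2-6 peaks at 408 to 415 bases, beside the windows; lengths outside the axis are not drawn.

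Some of these contigs lay in cells that expressed a V gene which no contig was called for. Trbv26 and Trbv30 had 2964 and 153 UMIs in turnover and 892 and 109 in autonomy, yet neither V(D)J table names either of them in any contig. In RefSeq on GRCm38.p6 both are V segments on chromosome 6, Trbv26 at 41227525 to 41227913 and Trbv30 at 41281376 to 41281990. Of cells with at least 3 Trbv26 UMIs, 179 of 193 in turnover (92.7%, 88.1 to 96.0) and 67 of 81 in autonomy (82.7%, 72.7 to 90.2) held a TRB contig without a V segment. For Trbv30 it was 13 of 13 and 7 of 7 cells.

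Cells marked in the same way by the 20 V genes that contigs were called for held one in 33.3% to 59.0% of cells in turnover (median over genes 47.7%) and in 15.1% to 42.5% in autonomy (median 25.1%). Those cells also had a contig of the expressed V gene in a median 88.4% and 84.4%. Among the Trbv26 cells 60.1% and 43.2% had no V-containing TRB contig, against at most 6.47% and 6.80% for any of the 20 genes. Trbv21, also called for no contig, had 143 UMIs in autonomy, where 12 of 21 cells with 3 or more UMIs held a contig without a V segment (57.1%, 34.0 to 78.2).

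The contigs in Trbv26 cells were long. Their median length was 618 bases in turnover and 612 in autonomy, and 81.0% and 71.6% reached 600 bases. In cells with no UMI of Trbv21, Trbv26 or Trbv30 the median was 459 and 460 bases, and 8.94% and 8.03% reached 600. Their J segments differed as well, with TRBJ2-6 in 3 of 179 and 3 of 67. Whether these contigs contain Trbv26 sequence was not tested, because the tables hold no contig sequence. Cells with any UMI of the 3 genes held 219 of the 2211 contigs of kept turnover cells (9.91%) and 111 of 1443 in autonomy (7.69%), so about 9 in 10 lay in cells where no UMI of them was counted. At this depth a count of 0 does not show that a cell lacks the RNA. The 3 genes were picked after their values were seen, and results that leave these cells out are given below as alternatives.

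**Figure D3:**
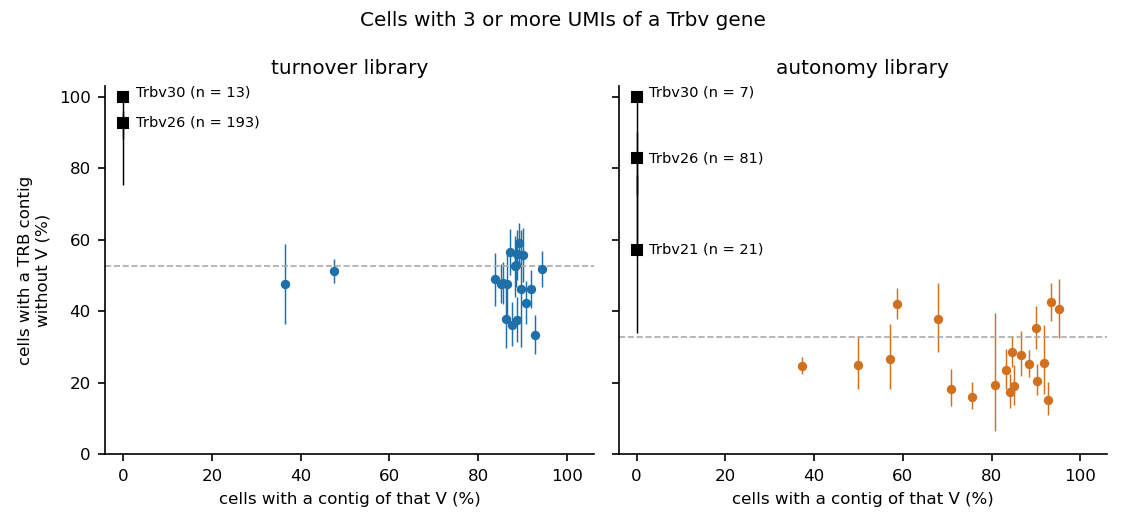
Each point is a Trbv gene and stands for the cells with 3 or more UMIs of it in the gene expression library; the horizontal axis is the share with a TRB contig called for that V segment, the vertical axis the share with a TRB contig without a V segment (bars, exact 95% intervals; dashed line, all kept cells). Genes that no contig was called for (black squares) lie at 0 on the horizontal axis, with Trbv26 at 92.7% in turnover and 82.7% in autonomy.

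UMIs of the J segment genes (Trbj), counted in the gene expression library of the same cells, were set against the contigs. Whether these UMIs come from unrearranged or joined J segments was not tested. Of turnover cells with a UMI of any Trbj1 gene, 281 of 380 (73.9%, 69.2 to 78.3) held a TRB contig without a V segment, against 50.6% of cells without such a UMI. In autonomy it was 63 of 116 (54.3%, 44.8 to 63.6) against 32.2%. For the Trbj2 genes the shares were 54.1% against 52.6% in turnover and 37.4% against 32.3% in autonomy, closer together than for Trbj1.

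How often the J segment of the contig matched the gene differed widely between genes. Of the 61 turnover cells with both a Trbj1-3 UMI and such a contig, 25 carried TRBJ1-3 on it (41.0%), against 3.08% of all cells with such a contig. For Trbj2-1 it was 46 of 76 (60.5%) against 27.7%. Autonomy cells with Trbj2-3 gave 24 of 31 (77.4%) against 11.4%. The match was rare for other genes. It was 3 of 56 for Trbj1-1 in turnover, and in autonomy 0 of 8 for Trbj1-1, 0 of 17 for Trbj1-5, 2 of 18 for Trbj1-4, 2 of 24 for Trbj2-2 and 4 of 37 for Trbj2-4. V-containing contigs with the same J segment were frequent in these cells too, in 51.4% of autonomy cells with a Trbj2-1 UMI against 9.62% of all kept cells. Over the autonomy genes this ran from 6.25% (Trbj1-1, against 2.30% of all kept cells) to 81.6% (Trbj2-4, against 20.3%). Trbj2-6, Trbj1-7, Trbd1 and Trbd2 had 0 UMIs in both libraries, so the pseudogene J segment could not be checked in this way. Cells with a Trbj UMI also had more UMIs in all, with medians of 3034 against 2028 in turnover and 2630.5 against 2411 in autonomy.

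Contigs without a V segment were present in 2211 of 4194 kept cells in turnover (52.7%, 51.2 to 54.2) and in 1443 of 4397 in autonomy (32.8%, 31.4 to 34.2). Most cells that carried one had a complete receptor beta chain as well: 1878 of the 2211 and 944 of the 1443 also had a productive TRB contig. Among cells with a productive TRB contig, 50.6% in turnover (49.0 to 52.2) and 29.5% in autonomy (27.9 to 31.1) held one. Among cells without, 68.9% (64.6 to 73.0; 333 of 483) and 41.8% (39.0 to 44.6; 499 of 1194) did. The ratio of the shares was 1.36 (log-normal interval 1.27 to 1.46) and 1.42 (1.30 to 1.54). The cells without a productive chain include cells with no V-containing contig, whose share depends on whether they had any V(D)J contig. Without the cells that had a UMI of Trbv21, Trbv26 or Trbv30 the ratio was 1.13 (1.02 to 1.24) in turnover, where the shares were then 56.3% without and 49.97% with a productive chain, and 1.34 (1.22 to 1.47) in autonomy.

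The cells without a productive chain were of 2 kinds. Those with V-containing contigs that were all unproductive held a contig without a V segment in 36.7% (29.6 to 44.3; 65 of 177) in turnover and 33.2% (29.8 to 36.9; 234 of 704) in autonomy. In turnover this is below the 50.6% of cells with a productive chain, so the ratio above 1 there comes from cells with no V-containing contig. In autonomy it is only slightly above the 29.5% (27.9 to 31.1) of cells with a productive chain, and the intervals overlap. Those with no V-containing TRB contig held one in 87.6% (268 of 306) and 54.1% (265 of 490). That last pair of shares depends on which of these cells had any V(D)J contig. Of those that did, 268 of 269 and 265 of 274 held a TRB contig without a V segment. The other 37 and 216 cells had no contig of any chain, so they could not hold one. Why nearly all of the former held one was not tested. Without the cells that had a UMI of Trbv21, Trbv26 or Trbv30 the shares of cells with no V-containing contig were 78.5% and 51.5%.

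TRA is rearranged later than TRB, and shares with and without a productive TRA chain lay close together. The share with a contig without a V segment was 51.4% with a productive TRA chain and 53.7% without in turnover, a ratio without over with of 1.04 (0.98 to 1.11). In autonomy it was 32.7% and 32.9%, a ratio of 1.01 (0.93 to 1.10). Among autonomy cells without a productive TRB contig the shares were 52.0% (184 of 354) with a productive TRA chain and 37.5% (315 of 840) without, while in turnover the same cells gave 64.4% and 71.0%. In both comparisons the cells without a productive TRA chain include 37 turnover and 216 autonomy cells with no V(D)J contig of any chain. Those cells could not hold one, which lowers the shares without a productive TRA chain.

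The J cluster used by the V-containing contig ordered the cells in each library. With 1 V-containing contig on TRBJ1, 69.8% of cells in turnover (67.2 to 72.3; 890 of 1275) and 71.3% in autonomy (65.6 to 76.5; 201 of 282) held a contig without a V segment. With 1 on TRBJ2 it was 43.3% (849 of 1962) and 34.8% (831 of 2389). With 2 on TRBJ2 it was 13.6% (37 of 272) and 10.8% (102 of 942). The ratio of TRBJ1 to TRBJ2 cells was 1.61 (1.52 to 1.72) in turnover and 2.05 (1.87 to 2.25) in autonomy, and that of 1 TRBJ2 contig to 2 was 3.18 (2.35 to 4.31) and 3.21 (2.65 to 3.89). In autonomy each cell of a clone counts separately here, and the share ran from 5% to 100% over its 30 clones of at least 20 cells. The intervals do not cover this, and these ratios were not recounted once per clone.

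Turnover held 97 cells with 2 V-containing contigs that were both on TRBJ1. Of these 53 held a contig without a V segment, and all 53 carried a TRBJ2 segment, TRBJ2-1 in 26. The count of 0 of 53 with TRBJ1 allows a share of up to 5.66%. In cells with 1 V-containing contig on TRBJ2, 30.0% of turnover contigs without a V segment carried TRBJ1, and with 1 on TRBJ1 it was 16.6%. Of the contigs without a V segment in cells with 2 V-containing contigs on TRBJ2, 50 of 102 in autonomy carried TRBJ2-6 (49.0%), against 24.7% in cells with 1 such contig. In turnover it was 5 of 37 (13.5%) against 13.0%.

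The libraries differed in how their cells fell into these J classes. Cells with 1 V-containing contig on TRBJ1 were 30.4% of kept cells in turnover and 6.41% in autonomy, and cells with 2 on TRBJ2 were 6.49% and 21.4%. With the autonomy shares per class and the turnover numbers of cells per class, 44.2% of cells would hold a contig without a V segment, between the observed 32.8% and 52.7%. The ratio of autonomy to turnover was 1.02 (0.94 to 1.11) within cells of 1 TRBJ1 contig, 0.80 (0.75 to 0.87) within cells of 1 TRBJ2 contig and 0.62 (0.56 to 0.68) within cells with no V-containing contig. That last class includes cells with no V(D)J contig of any chain, 216 of 490 in autonomy and 37 of 306 in turnover. Among its cells with any V(D)J contig, 96.7% in autonomy and 99.6% in turnover held one without a V segment. The 44.2% uses the same class.

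**Figure D4:**
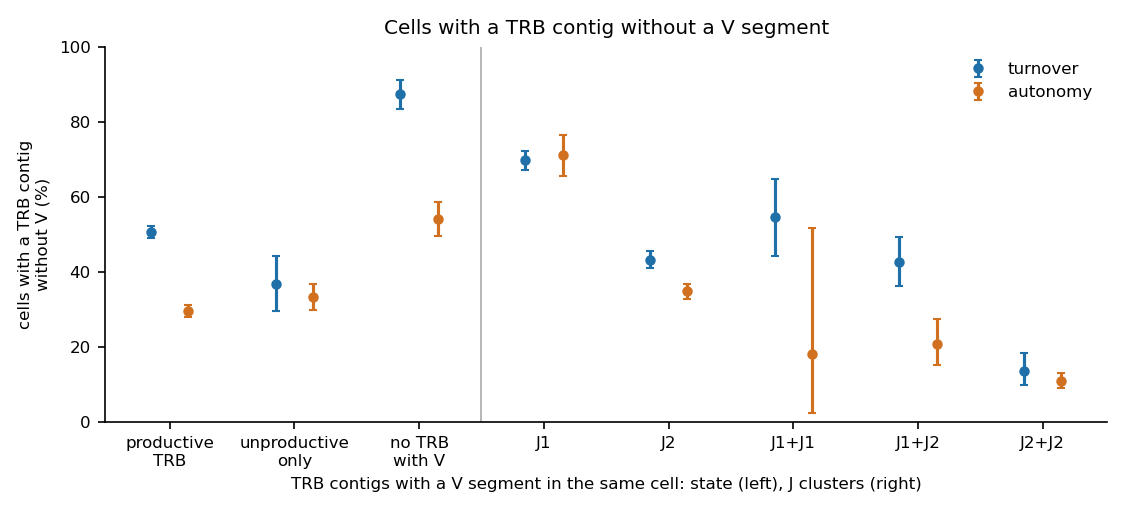
Share of kept cells (%) with a TRB contig without a V segment, by the state of the V-containing TRB contigs of the cell (left of the line) and by their J clusters (right), with exact 95% intervals. Cells with 1 TRBJ1 contig sit at 69.8% in turnover and 71.3% in autonomy, and cells with 2 TRBJ2 contigs at 13.6% and 10.8%.

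The contig and the V-containing contig of a cell rarely shared a J segment. They did in 91 of 1772 turnover cells with 1 V-containing contig (5.14%) and in 51 of 1042 autonomy cells (4.89%). The product of the 2 J distributions would give 7.82% and 10.1%.

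Autonomy held large clones, cells with the same set of productive TRB CDR3s, and members of a clone tended to carry the same J segment on their contigs without a V segment. Among pairs of such cells within a clone, 4066 of 7328 (55.5%) had the same J segment, against 15.3% of pairs from different clones. Of the pairs with the same J segment, 24.4% within clones and 6.55% between clones also agreed in length to within 3 bases. Clones of many cells weigh most in these pairs, and the mean over 105 clones was 57.4%. With TRBJ2-6 and TRBJ2-7 left out, the share within clones was 81.2%, against 14.6% between clones. Turnover had 23 pairs within clones, 4 with the same J segment, too few to compare.

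The 38 autonomy clones with at least 5 such contigs held 531 of them in 1298 cells. A clone carried them in between 8.57% and 100% of its cells (median 45.9%), a level raised by choosing clones that hold at least 5. Over all 30 autonomy clones of at least 20 cells the share ran from 5% to 100% with a median of 19.0%. In 8 clones every contig carried a single J segment, in 22 at most 2 J segments occurred, and in 29 the leading segment made up more than 50%. TRBJ2-6 or TRBJ2-7 led in 17 clones, and 18 clones held both. These counts treat the TRBV13-1 TRBJ1-5 clones of 40 and 46 cells as separate, although the shorter CDR3 lies within the longer. Both carried only TRBJ2-1. The TRBV13-2 TRBJ2-4 CDR3 was likewise counted separately in 168 cells with a TRBV29 TRBJ2-5 CDR3 and in 15 cells without it. The number of separate families may therefore be smaller.

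The clone TRBV3 TRBJ2-2, whose junction is printed above, had 139 cells, of which 85 carried a contig without a V segment (61.2%, 52.5 to 69.3), 51 with TRBJ2-7 and 30 with TRBJ1-2. TRBV3 TRBJ2-5 had 31 of 39 cells, 28 with TRBJ1-2. TRBV13-2 TRBJ2-7 had one in each of its 27 cells, 14 with TRBJ2-5 and 13 with TRBJ2-3. These 3 clones thus showed 1 or 2 recurrent J segments each, and different ones from clone to clone. TRBV13-1 TRBJ1-1 had 26 of 40, 14 with TRBJ1-3 and 8 with TRBJ2-7. TRBV19 TRBJ2-4 had 26 of 56, 22 with TRBJ2-5, and the TRBJ2-5 contigs had a median of 285.5 bases. TRBV5 TRBJ1-1 had 25 of 28, all with TRBJ2-3. The last clone shows a TRBJ1 join beside a contig on TRBJ2 in nearly every cell. Among the 21 clones led by a segment other than TRBJ2-6 and TRBJ2-7, a median 71.4% of a clone's cells carried such a contig.

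**Figure D5:**
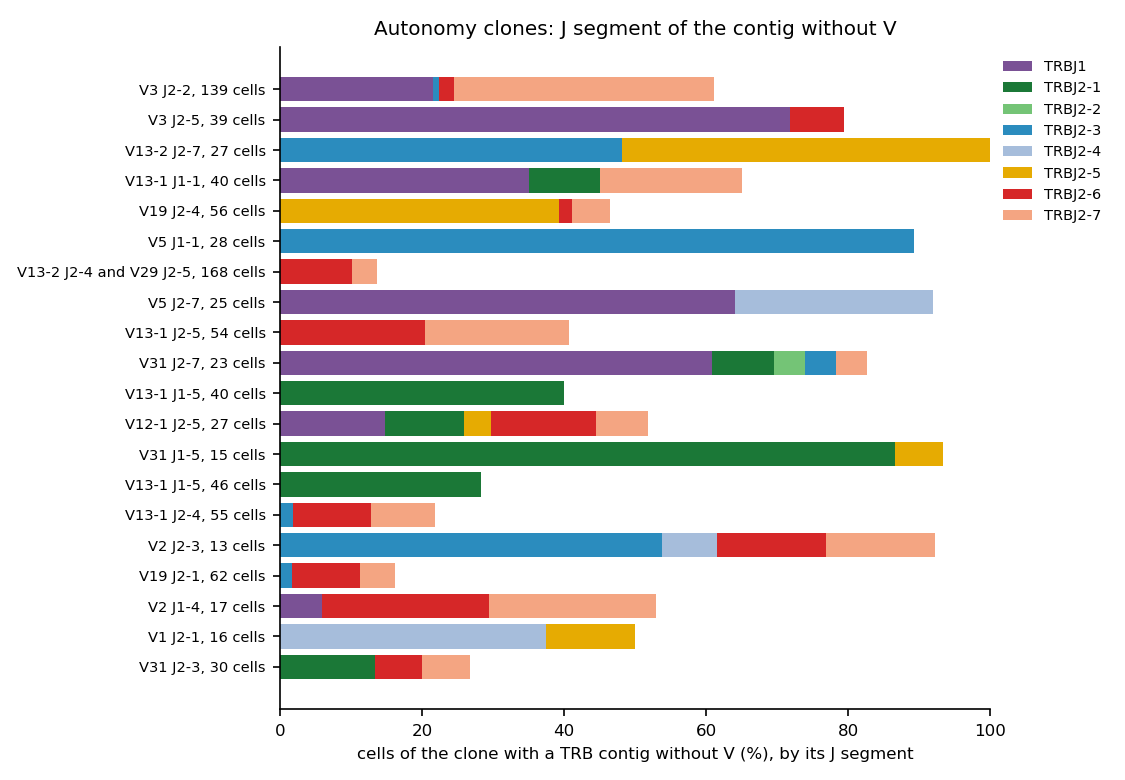
The 20 autonomy clones with the most TRB contigs without a V segment, named by the V and J segments of the productive chain with their number of cells; bar length is the share of the clone's cells (%) that carry such a contig, and colours give its J segment, with the TRBJ1 segments in 1 colour. The leading colour changes from clone to clone, and some bars have a single colour, as in TRBV5 TRBJ1-1, all TRBJ2-3. The TRBV13-1 TRBJ1-5 bars are drawn separately although the shorter CDR3 lies within the longer.

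Gene expression showed whether a clone also expressed a V gene that its contigs did not name. The most widely detected such gene, leaving out Trbv13-2, which had a UMI in 54.4% of all autonomy cells, was in fewer than 25% of cells in 23 of the 38 clones, which held 380 of 527 contigs in kept cells. It was in more than 50% in 8 clones, which held 92. In the clone TRBV3 TRBJ2-2 it was Trbv2, in 22.1% of cells against 10.1% elsewhere. In TRBV5 TRBJ1-1 it was Trbv20, in 22 of 27 kept cells (81.5%) against 5.38% elsewhere, and in TRBV13-1 TRBJ2-5 it was Trbv21, in 31 of 53 (58.5%) against 0.944%. Of the 6 clones whose junctions are printed above, the other 5 had such a gene in between 5% and 24.3% of cells. The limits of 25% and 50% were set after the values were seen.

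The 4 stage genes were compared between cells with and without such a contig. Il2ra, the CD25 chain that marks DN3 cells, was higher with it in both libraries, at 76.4 against 27.3 CPM (the usual scaling of a gene's UMIs to the summed UMIs of the cells compared) in turnover, a fold of 2.80 (2.42 to 3.24), and at 146 against 108 CPM in autonomy, a fold of 1.36 (1.24 to 1.49). Turnover cells with 3 or more Il2ra UMIs held a contig without a V segment in 76.0% (79 of 104) against 51.8% with none, and autonomy cells in 40.4% (63 of 156) against 32.1%. Depth moved with it: in turnover the cells with 3 or more had a median of 9020 UMIs against 2083, and in autonomy 3996.5 against 2397.5. After thinning each cell to 1000 UMIs the ratio for cells with an Il2ra UMI was 1.28 (1.11 to 1.47) in turnover and 1.09 (0.96 to 1.24) in autonomy.

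The Il2ra comparison was repeated with cells split by a productive TRB chain; the difference between the splits was not tested. Without a productive chain, turnover cells with an Il2ra UMI held a contig without a V segment in 84.1% (90 of 107) against 64.6%, a ratio of 1.30 (1.16 to 1.45), and with a productive chain the ratio was 1.07 (0.91 to 1.25). The first of these mixes cells with no V-containing contig with cells whose V-containing contigs were all unproductive. In the latter alone, a split added after seeing the data, it was 7 of 12 against 58 of 165, a ratio of 1.66 (0.99 to 2.79). In autonomy the ratios were 1.11 (0.96 to 1.27) without and 1.004 (0.88 to 1.15) with a productive chain, and 1.03 (0.83 to 1.29) with only unproductive V-containing contigs. Of turnover cells with at least 5000 UMIs and no productive TRB chain, 115 of 127 (90.6%, 84.1 to 95.02) held one, against 45 of 119 (37.8%, 29.1 to 47.2) in autonomy. The libraries differ there in the kind of cell: 109 of the 127 had no V-containing contig, against 27 of the 119, and among those 94.5% and 92.6% held one. With only unproductive V-containing contigs it was 12 of 18 (66.7%, 41.0 to 86.7) and 20 of 92 (21.7%, 13.8 to 31.6).

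Itm2a, which goes up with positive selection, was lower with the contig in both libraries, at 113 against 139 CPM (fold 0.82, 0.75 to 0.88) and 157 against 238 CPM (fold 0.66, 0.61 to 0.71). By cells, those with an Itm2a UMI held the contig in 51.4% against 53.0% in turnover, a ratio of 0.97 (0.90 to 1.04), and in 27.3% against 33.6% in autonomy, a ratio of 0.81 (0.70 to 0.94). Among turnover cells without a productive TRB chain the ratio was above 1, at 1.18 (1.04 to 1.35), and with only unproductive V-containing contigs it was 1.22 (0.73 to 2.03). Rag1 was at 544 against 602 CPM in turnover (fold 0.90) and at 900 against 806 in autonomy (fold 1.12). Those opposite directions hold for the summed level only: by cells, the ratio of the shares with and without a Rag1 UMI was 1.06 (0.99 to 1.14) in turnover and 1.26 (1.12 to 1.42) in autonomy. Mki67, expressed in cycling cells, stood at 297 against 270 CPM (fold 1.0996) and 101 against 120 CPM (fold 0.84), again opposite in the summed level. By cells, those with a Mki67 UMI held the contig in 59.3% against 51.5% in turnover, a ratio of 1.15 (1.07 to 1.24). In autonomy it was 31.7% against 32.9%, a ratio of 0.96 (0.80 to 1.16). After thinning to 1000 UMIs the ratios were 1.18 (1.06 to 1.31) and 0.74 (0.50 to 1.09).

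Few genes differed by 2-fold or more. Of genes with at least 100 UMIs, 30 of 8813 in turnover were at least 2-fold higher with the contig (0.34%) and 12 lower (0.136%), together 42 (0.477%). In autonomy 10 of 8972 were higher (0.111%) and 29 lower (0.323%), together 39 (0.435%). Restricted to turnover cells with 1 productive TRB contig and no other V-containing one, 12 genes were 2-fold apart in place of 42, and in autonomy 44 in place of 39. Among the 8517 genes measured in both, 3 were 2-fold higher in both, Trbv30, Trbv26 and Pld4, and 2 were 2-fold lower in both, Trbv15 and Trbv29.

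Trbv26 stood at 253 against 13.7 CPM in turnover (18.4-fold, 15.3 to 22.3) and 141 against 13.0 CPM in autonomy (10.8-fold, 9.02 to 13.0). Trbv30 had 152 UMIs with the contig and 1 without in turnover, a fold of 118 (20.9 to 4697), and 109 and 0 in autonomy, at least 74.4-fold higher against a limit of 3 counts over all cells without the contig. Pld4 was 3.17-fold and 2.05-fold higher. The next in rank, Ctla4, Trav6n-6 and Plekha7, were between 1.79-fold and 2.43-fold higher. Lower with the contig were V genes that contigs were called for, Trbv15 (folds 0.44 and 0.44), Trbv29 (0.47 and 0.32), Trbv17 (0.44 and 0.51) and Trbv16 (0.58 and 0.36), and Trav8-1 (0.47 and 0.52) and Pacsin1 (0.56 and 0.47).

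The list of 8 DN3 and beta-selection genes had 3 of 7 measured members at least 2-fold higher in turnover (median fold 1.89) and 0 of 6 in autonomy (median 1.14). The lists take genes with 20 UMIs, and of all such genes 1.37% were 2-fold higher in turnover (147 of 10734) and 0.717% in autonomy (78 of 10872). Ptcra, the pre-T alpha chain that pairs with a new beta chain, stood at 128 against 81.9 CPM in turnover (fold 1.57) and 426 against 355 in autonomy (1.20). Notch1 was at 80.9 against 48.8 CPM (1.66) and 195 against 184 (1.06). The 3 were Il2ra, Hes1 and Spib, the last with 18 and 3 UMIs (fold 4.66, 1.36 to 24.7). In autonomy Spib had 4 and 5 UMIs, too few to be measured. Cd44 of the same list went the other way, with intervals that include 1. It had 16 and 16 UMIs in turnover (fold 0.78, 0.36 to 1.66) and 13 and 39 in autonomy (fold 0.68, 0.33 to 1.31). Hes1, a NOTCH target, had 66 and 24 UMIs (fold 2.14, 1.32 to 3.57) and 50 and 80 (fold 1.28, 0.88 to 1.84).

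Of the 7 post-selection genes, 1 was at least 2-fold lower in turnover and 0 in autonomy, with median folds of 0.77 and 0.72. Of all genes with 20 UMIs, 0.708% were 2-fold lower in turnover and 1.22% in autonomy. Nr4a1, an early gene of receptor signalling, was at 17.7 against 40.4 CPM (fold 0.44) and 53.4 against 74.3 (0.72). Cd69 was at 34.3 against 63.9 CPM (0.54) and 55.8 against 85.8 (0.65), and Cd5 at 107 against 139 (0.77) and 178 against 226 (0.79). All 7 members were at a fold of at most 1.02 in turnover and at most 0.86 in autonomy.

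Of the 11 measured genes of V(D)J joining, none was 2-fold apart in either library, with folds between 0.88 and 1.28 in turnover and between 0.95 and 1.17 in autonomy. Rag2 was at 253 against 276 CPM in turnover and 383 against 396 in autonomy. Dntt, which adds bases at junctions, was at 1423 against 1424 CPM and 1154 against 1073. The 10 cycling genes had median folds of 1.06 and 0.83, and the 9 DP genes 0.89 and 0.99, with none 2-fold apart.

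The beta and delta constant genes were higher with the contig in both libraries and the alpha constant gene was lower. Trbc1 stood at 1073 against 619 CPM in turnover (1.73-fold) and 840 against 273 in autonomy (3.08-fold), and Trbc2 at 2684 against 2290 (1.17) and 2549 against 1769 (1.44). The pair is nearly identical in sequence, so how their reads were split is uncertain. The gamma constant genes Tcrg-C1, Tcrg-C2 and Tcrg-C4, also alike, were 4.20-fold, 3.105-fold and 3.48-fold higher in turnover. In autonomy the folds were 1.19 (0.92 to 1.53), 1.26 (0.999 to 1.57) and 1.41 (1.08 to 1.82), the first 2 with intervals that include 1. Trdc was at 112 against 73.9 CPM (1.51) and 33.1 against 23.0 (1.44), while Trac was at 112 against 134 (0.83) and 126 against 143 (0.88).

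Markers of other cells were low but moved too. The 8 macrophage genes summed to 26.2 against 14.5 CPM in turnover and 160 against 204 in autonomy, and the 6 dendritic cell genes to 25.7 against 14.9 and 63.9 against 141. The macrophage list had 3 of 5 measured genes 2-fold higher in turnover, where 1.37% of all genes with 20 UMIs were, and 2 of 8 lower in autonomy, where 1.22% were. The 3 rest on few UMIs, 31 to 79 each. The stroma and epithelium list summed to 18.4 against 10.3 CPM in turnover, nearly all from Epcam. The 4 globin genes were at 0 in both libraries. Whether cells or RNA of these types have a part in the differences was not tested.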

How the data were processed

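Gene-by-cell UMI counts and V(D)J contig annotations (UMI and read counts and length per contig) were used as deposited. The authors made them with Cell Ranger 3.0.2 on mm10 and list Seurat 3.1.3.9002, per the submitters' processing notes; other settings are not given in the sources used here. Barcodes joined the 2 kinds of table of a condition. Shares carry exact Clopper-Pearson 95% intervals, ratios of shares log-normal intervals, and folds of summed UMIs conditional exact binomial intervals. The limit for a count of 0 is 3 counts over the total. Genes were compared as CPM of summed cells, called at 2-fold with at least 100 UMIs. Listed genes needed 20 UMIs. Named genes are the stage genes, constant genes, joining genes and the 6 highest and 6 lowest folds that had the same direction in both libraries; other list members named were chosen after their values were seen. Doublets were not removed. Members and lists were chosen with earlier results of these data known. The fold comparison was tested on simulated data. Python 3.11.15 with numpy 2.4.6, pandas 2.3.3 and scipy 1.17.1 was used, and edgeR 4.0.16 in R 4.3.3 for TMM factors in an alternative.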

Additional observations from a re-analysis of the deposited data

Results flagged for a closer look

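For 11 of the 66 listed genes measured in both libraries, the fold of cells with over cells without a TRB contig without a V segment lay on opposite sides of 1, with counting intervals that exclude 1. The same count over all genes was not made, and the difference between the libraries was not tested. Of these 11, the antigen presentation genes H2-Aa and Cd74 and the macrophage gene Lyz2 had the widest gaps. H2-Aa was at a fold of 2.95 in turnover and 0.525 in autonomy, Lyz2 at 2.63 and 0.470, and Cd74 at 1.89 and 0.477. No other gene of the macrophage list was among the 11. C1qa of that list, for example, was at 3.24 in turnover and 0.9995 (0.80 to 1.24) in autonomy. Of the 10 cycling genes, 5 were above 1 in turnover and below it in autonomy with both intervals excluding 1, Cenpf at 1.11 and 0.590, Ube2c at 1.06 and 0.599, Birc5 at 1.07 and 0.827, Mki67 at 1.0996 and 0.842, and Top2a at 1.08 and 0.901. Pcna, Tyms and Mcm5 of the same list were above 1 in autonomy as well, at 1.16, 1.1025 and 1.09. Cd3g was at 1.07 and 0.968 and Hmgb2 at 1.03 and 0.946, both close to 1. Rag1 went the other way, at 0.902 and 1.12, in the summed level only: by shares of cells its ratio was above 1 in both, at 1.06 (0.992 to 1.14) and 1.26.

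Contigs whose chain call is Multi, and which the comparisons above do not use, also lacked a V segment in 1417 cases in turnover and 1207 in autonomy. Of these, 1010 and 946 combine TRAJ50 with TRBC2. They shared 819 and 431 barcodes with TRB contigs without a V segment.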

How the results depend on the processing

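No paired analysis was possible because each condition has 1 sample. Of 96 alternative values for 24 results, 79 stayed within the interval or within 1.5 times the count and 17 moved. Among results with an interval that excludes 1, 0 changed direction. The cause of the moves was not tested. Some of the 79 could not move. Those limited to high-confidence contigs or to barcodes called cells repeat the main value, because every contig met both limits. The D segment call was 0 in all contigs without a V segment, so its alternatives could not move either. Of ratios whose intervals include 1, those for lacking a productive TRA chain fell below 1 in cells with 1000 to 4000 UMIs (autonomy 0.963), and that for a Rag1 UMI in turnover after thinning (0.998). Counted in UMIs, the share of TRB contigs was 24.2% in turnover and 15.4% in autonomy, and the autonomy TRBJ1 share 14.7%. In turnover, cells with 1000 genes and 2000 UMIs gave a share of 56.0%, and cells with 1000 to 4000 UMIs a ratio of 1.25 for lacking a productive TRB chain and 0.982 for lacking a productive TRA chain. Thinning to 1000 UMIs gave a Mki67 ratio of 0.739 in autonomy. Genes 2-fold apart numbered 15 in turnover and 10 in autonomy with 500 UMIs required and 15 and 13 after thinning, both of which compare fewer genes. The following were chosen after seeing the data. Without cells with a UMI of Trbv21, Trbv26 or Trbv30 the turnover share was 50.5% and its productive TRB ratio 1.13. Cells with 1 productive TRB contig and no other V-containing one gave 12 genes in turnover. Counted once per clone and J segment, the autonomy TRBJ1 share was 7.20%. Pairs within autonomy clones shared a J segment in 56.7% with contained CDR3s merged and in 81.2% without TRBJ2-6 and TRBJ2-7. Shallow cells and contigs limit what a missing contig can show.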
